A study of Mus musculus with 62 samples.

Results

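The soleus (SOL) of mice fed normal chow was compared between muscle-specific ChREBP knockout mice and floxed littermates. The comparison rests on 10 libraries of the 62 in the series, 5 per genotype, chosen by tissue and genotype from the labels of the samples and not by any measured value. Earlier results of these data were known when the comparison was chosen. Control mice (F/F) carried the floxed ChREBP gene without Cre. Knockout mice (ChMKO) carried the same floxed gene together with Mck-cre, a Cre recombinase under the muscle creatine kinase promoter, which also recombines in heart. LoxP sites flank exon 8, and removal of that exon shifts the reading frame, so transcript can still be made and counted. All mice were male, 8 to 10 weeks old and without further treatment. Because F/F mice lack Cre, the deletion and the presence of the Cre transgene cannot be told apart in any difference below. The question was what loss of ChREBP does to the resting transcriptome of a slow, oxidative muscle. Values are FPKM (fragments scaled by transcript length and library total), and of 29239 gene symbols in the table the 13348 with a mean of at least 0.5 FPKM over the 10 libraries were tested with limma on log2(FPKM + 1).

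ChREBP, encoded by Mlxipl, is a transcription factor that responds to sugar phosphates, pairs with the partner protein Mlx and binds E-box motifs in carbohydrate response elements. In liver and fat it drives glycolytic, fructose-handling and lipogenic genes. Its paralog MondoA, encoded by Mlxip, is also made in skeletal muscle. Soleus is rich in type I and type IIa fibers, which burn fatty acids and glucose in mitochondria, and its bulk RNA also holds transcripts of tendon, vessels, nerve, fat and blood. In such bulk samples fewer cells of a type and less RNA per cell cannot be told apart.

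Libraries held 16837033 to 19808340 fragments, and 25.6% to 30.8% of the summed FPKM lay in the top 10 genes. The tissue label was borne out by the slow-fiber genes Tnnc1 at 2193 to 3997 FPKM and Myh7 at 1757 to 2267 FPKM. These genes do not measure how much neighboring fast muscle a sample held, and Myh4 of type IIb fibers ranged from 19.4 to 1229 FPKM. F/F mouse 71 stood apart before any comparison: its 14 tendon markers summed to 27.7 FPKM against 223 to 303 in the other F/F libraries, and its median Spearman correlation with the other soleus libraries was 0.948 against 0.975 to 0.978. The first principal component, with 32.3% of the variance, placed this library at 44.5 and the other 9 between -9.07 and 0.102. Many of the gene lists and genes that moved most without it are given both ways.

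Mlxipl lies at chr5:135089891-135138382 (GRCm38, plus strand). In F/F mice 57, 58, 69, 70 and 71 its level was 55.2, 54.3, 49.5, 43.8 and 64.1 FPKM. In ChMKO mice 59, 60, 61, 72 and 74 it was 29.96, 46.1, 31.7, 41.0 and 43.0 FPKM, and per-library values below follow the same order of mice. All but 1 of the ChMKO libraries lay below the lowest F/F library, so the groups overlapped. The means were 53.4 ± 7.51 FPKM in F/F and 38.4 ± 7.13 in ChMKO (SD, n = 5 each). The log2 fold change was -0.47 (SE 0.136, unadjusted p = 0.00486, adjusted p = 0.384). Each value rests on 2190 to 4762 fragments over the whole transcript, of which exon 8 is a small part. The relatives of ChREBP showed smaller differences. MondoA (Mlxip) was at 13.1 ± 2.96 FPKM in F/F and 10.98 ± 0.495 in ChMKO (log2 fold change -0.21, unadjusted p = 0.127), and Mlx, the shared partner, at 3.82 ± 0.342 and 3.58 ± 0.379 FPKM (log2 fold change -0.07, unadjusted p = 0.365).

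**Figure D1:**
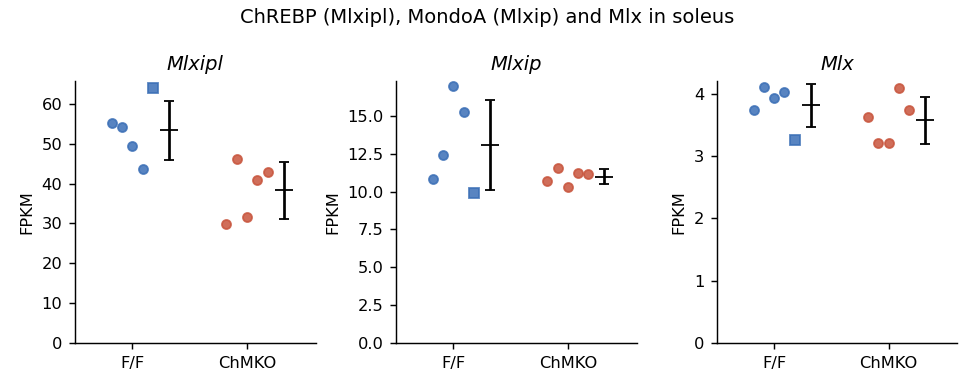
FPKM of Mlxipl, Mlxip and Mlx (y axes, from 0) in the 5 F/F (blue) and 5 ChMKO (red) soleus libraries, with the mean ± SD in black and F/F mouse 71 as a square. Mlxipl averaged 38.4 FPKM in ChMKO against 53.4 FPKM in F/F with overlapping groups, and Mlxip and Mlx overlapped widely.

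ChREBP binds variants of the E-box CACGTG, and the promoter window at the upstream start of Mlxipl holds that motif itself. The RefSeq window chr5:135089640-135089939 (GRCm38.p6, plus strand, 250 bases before to 50 after the start) is printed to show it, with the match at -98 in capitals:
Mlxipl: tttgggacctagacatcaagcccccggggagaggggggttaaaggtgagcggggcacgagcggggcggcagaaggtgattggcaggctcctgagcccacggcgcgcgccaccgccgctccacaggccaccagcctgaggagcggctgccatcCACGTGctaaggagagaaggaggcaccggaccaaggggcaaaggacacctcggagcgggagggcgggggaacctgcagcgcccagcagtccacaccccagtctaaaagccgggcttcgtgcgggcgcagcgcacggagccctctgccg
CACGTG reads the same on both strands and stands in 7.15% of the 32851 promoter windows. A match describes the sequence and does not mark a bound site. The window at the other annotated start of Mlxipl, chr5:135106641-135106940, holds no CACGTG. FPKM over the gene does not separate the 2 annotated starts, so the values above do not tell which window was in use.

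The differences that passed the adjusted p were those of 3 lncRNAs, 0.0225% of the genes tested: Gm38824, Gm36408 and Gm38954. All 3 were listed at 0 in each F/F library and were present in each ChMKO library. Gm38824 was at 10.2, 8.30, 9.92, 8.59 and 9.41 FPKM in the ChMKO libraries, on 133 to 158 fragments each. Gm36408 was at 2.41, 2.66, 3.81, 4.75 and 3.81 FPKM, and Gm38954 at 2.88, 3.09, 2.61, 4.88 and 4.42 FPKM. Over the 5 F/F libraries together no fragment was counted for any of them, and with a floor of 3 fragments over that group the level in ChMKO was at least 227-fold higher for Gm38824, at least 36.2-fold higher for Gm36408 and at least 25.0-fold higher for Gm38954 (adjusted p = 2.36e-10, 1.33e-05 and 1.33e-05). These bounds cover counting error only. Gm38824, Gm36408 and Gm38954 were also the only genes of the table at 0 in all 10 F/F libraries of soleus and gastrocnemius (GC) and above 0 in all 10 ChMKO libraries, and no gene showed the reverse. In soleus alone 4933440J02Rik joined these 3, and 5 genes showed the reverse (Dlx5, Gm30021, Gm40309, Gm648 and LOC108167937), all of them and 4933440J02Rik below the limit for testing.

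**Figure D2:**
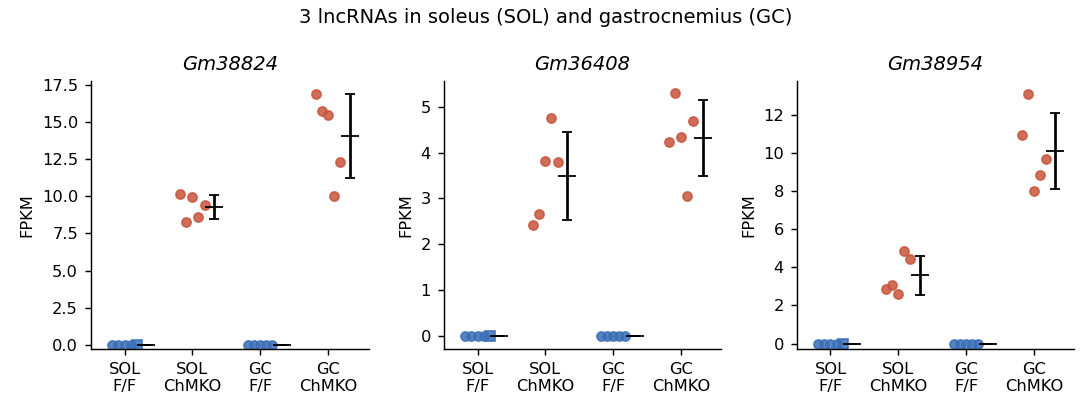
FPKM of Gm38824, Gm36408 and Gm38954 (y axes) in each soleus (SOL) and gastrocnemius (GC) library of F/F (blue) and ChMKO (red) mice, with the mean ± SD in black. F/F libraries sit at 0 in both muscles, and Gm38954 averages 3.57 FPKM in SOL and 10.1 FPKM in GC of ChMKO mice.

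The 3 lncRNAs come from 2 places in the genome. Gm36408 (chr6:66148439-66272364, minus strand) and Gm38824 (chr6:66311011-66315679, minus strand) are neighbors, and the pseudogene Gm31520 (chr6:66272505-66284845, plus strand) lies between them, its start 141 bases from that of Gm36408 on the opposite strand. Gm31520 was below the limit for testing, with 1 fragment in the 5 F/F libraries and 25 in the 5 ChMKO libraries. Gm38954 (chr7:19405689-19408309, plus strand) ends 2785 bases before the start of Ckm (chr7:19411094-19421583, plus strand), which encodes muscle creatine kinase and whose promoter drives the Cre. Ckm itself was at 6030 ± 569 FPKM in F/F and 5614 ± 119 in ChMKO (log2 fold change -0.10, adjusted p = 0.679). Klc3, on the other side of Gm38954, was at 2.45 ± 0.550 and 2.07 ± 0.501 FPKM (log2 fold change -0.17, adjusted p = 0.661), and Mark4, beyond Ckm, at 8.403 ± 0.380 and 8.54 ± 0.641 FPKM. Whether the signal comes from the transgene or from these loci was not tested. The window that Gm36408 shares with the start of Gm31520, chr6:66272315-66272614 (GRCm38.p6, minus strand, RefSeq), is printed because both transcripts were counted almost only in ChMKO libraries, with E-boxes of the form CANNTG in capitals:
Gm36408: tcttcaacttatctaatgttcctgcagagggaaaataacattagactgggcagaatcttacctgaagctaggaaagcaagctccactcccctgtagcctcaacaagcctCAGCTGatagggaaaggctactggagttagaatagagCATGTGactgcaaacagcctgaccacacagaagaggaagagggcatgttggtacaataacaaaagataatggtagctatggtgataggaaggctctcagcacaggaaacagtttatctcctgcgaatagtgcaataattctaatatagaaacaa
It holds 2 such E-boxes and no CACGTG, and CANNTG, searched on both strands since it reads the same on each, stands in 72.3% of all windows.

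Across the transcriptome of the soleus, differences were small. At an unadjusted p under 0.05 there were 1300 genes (9.74%), 441 with the higher mean in ChMKO (3.30%) and 859 with the lower (6.44%), while the median log2 fold change over all genes was -0.02, with 5657 genes above 0 and 7691 below. The counts of list members given below stand beside these shares, and no set test was made. Beyond the 3 lncRNAs the smallest adjusted p was 0.113. The criterion of the study, a log2 fold change of 1 or more in size together with an unadjusted p under 0.05, was met by 21 genes (0.157%), 6 higher and 15 lower in ChMKO. The study applied it to DESeq2 fits, and here it was applied to limma on log2(FPKM + 1), so the counts are not comparable. The genotypes did not overlap for 273 genes, 118 higher (0.884%) and 155 lower (1.16%) in ChMKO. The genes without overlap numbered 359 to 849 with 1 library left out, with 849 lacking F/F mouse 57, 620 lacking ChMKO mouse 59, 447 lacking F/F mouse 71 and 425 lacking F/F mouse 58. Calls at an unadjusted p under 0.05 moved as well. They were 623 higher and 1393 lower of 13354 genes without F/F mouse 57, and 464 and 1007 of 13331 without F/F mouse 71. List counts with 1 library left out stand beside the calls over all genes in the same fit.

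**Figure D3:**
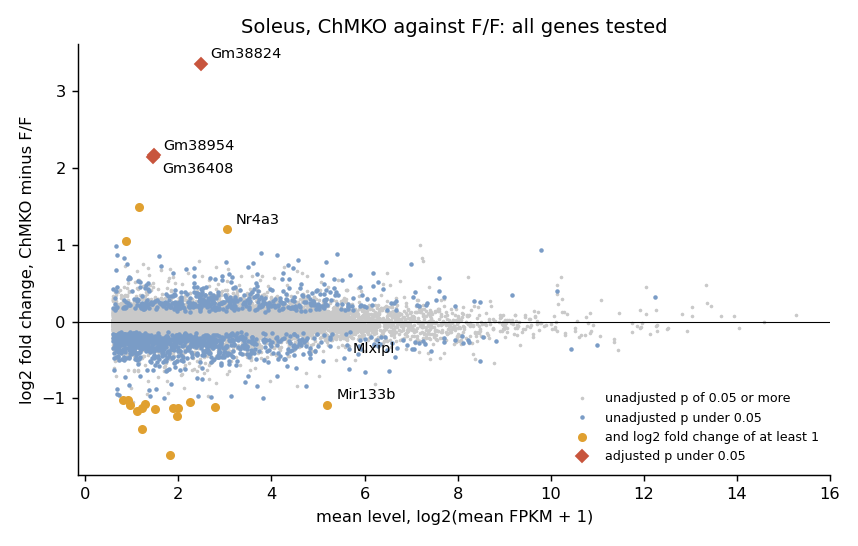
Each point is 1 of 13348 genes, with the mean level in soleus as log2(mean FPKM + 1) on the x axis and the log2 fold change of ChMKO over F/F on the y axis. The 3 lncRNAs lie above 2 on the y axis, and most other genes past a log2 of 1 in either direction have low levels.

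Of the 21 genes, 16 span at most 200 bases, miRNA hairpin and snoRNA loci together with immunoglobulin J segments, of which 14 were lower and 2 higher in ChMKO. These loci rested on few fragments, from 5 to 755 summed over the 10 libraries, and on at most 140 in a single library. Mir133b, the hairpin of a miRNA typical of skeletal muscle, had the most. It was at 18.03, 61.4, 38.0, 66.9 and 66.5 FPKM in F/F and 18.4, 19.1, 22.9, 15.6 and 31.4 in ChMKO (log2 fold change -1.08, SE 0.333, adjusted p = 0.408). F/F mouse 57 lay within the ChMKO range and the other F/F libraries above it. Mir703 was at 3.72 to 8.82 FPKM in F/F and 0.971 to 3.71 in ChMKO, and Mir6941 at 3.94 to 10.5 and 1.71 to 4.82 FPKM. The libraries were made from enriched mRNA, so fragments at a hairpin do not separate the mature miRNA from longer transcripts over the same bases. RefSeq gives mature sequences for 10 of the 11 miRNA loci, and all 17 have different seeds. The mature forms of the 3 loci with the most fragments are printed with the seed, bases 2 to 8, in capitals:
mmu-miR-133b-3p: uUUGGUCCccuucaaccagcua
mmu-miR-133b-5p: gCUGGUCAaacggaaccaaguc
mmu-miR-703: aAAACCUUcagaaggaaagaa
mmu-miR-6941-5p: cUGGGGGAcugacggguagcu
mmu-miR-6941-3p: cUAACUCGgcugcucccaaag

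The remaining low-count loci of this kind were Mir7079 (log2 fold change -1.40), Mir6931 (-1.23), AF357399 (-1.17), Mir365-1 (-1.14), Mir5136 (-1.13), Snord34 (-1.13), Snora20 (-1.09), Mir6921 (-1.07), Mir7036b (-1.02) and, with higher means in ChMKO, Mir1258 (1.496) and Mir5133 (1.04). Mir703 and Snord34 were without overlap between genotypes in FPKM but not in fragments, with 7 to 17 and 2 to 8 fragments for Mir703 and 3 to 9 and 1 to 3 for Snord34 in F/F and ChMKO. The immunoglobulin entries past the criterion were Igkc, Igkj2 and Iglj1. Igkc, the kappa light chain constant region, was at 0.906, 5.197, 3.18, 9.62 and 2.30 FPKM in F/F and 0.665 to 1.98 in ChMKO (log2 fold change -1.12, adjusted p = 0.416). The J segments Igkj2 and Iglj1, of 39 and 38 bases, had 17 and 5 fragments in all.

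Nr4a3, an orphan nuclear receptor induced by exercise and by adrenergic signals, was the protein-coding gene above a log2 of 1. Its level was 1.72, 3.51, 6.69, 2.44 and 6.13 FPKM in F/F and 8.10, 6.27, 9.31, 15.5 and 12.3 in ChMKO. Only ChMKO mouse 60 fell inside the F/F range (log2 fold change 1.20, SE 0.306, unadjusted p = 0.00227, adjusted p = 0.345). In the GC libraries labeled with the same mouse numbers the log2 fold change was 1.16 (SE 0.270, adjusted p = 0.468).

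Among genes that averaged 5 FPKM or more, 59 had a higher and 48 a lower mean in ChMKO with no overlap and an unadjusted p under 0.05. None passed the adjusted p when all 10 libraries had equal weight. With a weight estimated for each library, Ppara (adjusted p = 0.0449), Kdr (0.0449) and Dysf (0.0254) did. Ppara, a nuclear receptor that turns on fatty acid oxidation, was at 5.06, 6.01, 5.98, 6.19 and 5.14 FPKM in F/F and 7.48, 8.42, 9.28, 10.6 and 10.9 in ChMKO (log2 fold change 0.62, SE 0.102, unadjusted p = 7.08e-05, adjusted p = 0.118). Rhou, an atypical small GTPase, was at 13.8 to 18.7 FPKM in F/F and 22.3 to 26.5 in ChMKO (log2 fold change 0.56, SE 0.0861, adjusted p = 0.114). Dysf, which encodes the membrane repair protein dysferlin, was at 8.78 to 11.1 FPKM and 12.7 to 14.9 FPKM (log2 fold change 0.46, SE 0.0790, adjusted p = 0.158). In the fit of all 20 chow libraries Dysf had an adjusted p of 0.0134, or 0.0112 with the mouse as a replicate block. The other 9 at the top of this ranking were Irf2bp2 (0.63), a transcriptional corepressor, the heparan sulfate proteoglycan Sdc4 (0.60), Hsp90aa1 (0.54), the DNA topoisomerase Top1 (0.45), the chaperone Dnajb4 (0.45), Zfp703 (0.43), the endoplasmic reticulum GTPase Atl2 (0.42), the chromatin remodeler Smarca5 (0.41) and the chaperone Chordc1 (0.41), all as log2 fold changes. In Dnajb4 and Atl2, F/F mouse 71 lay far below the other F/F libraries, at 31.4 and 5.60 FPKM, and without it their log2 fold changes were 0.29 and 0.25.

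At the other end, Kdr, the VEGF receptor of endothelial cells, was at 18.3, 20.0, 18.5, 18.8 and 22.7 FPKM in F/F and 12.5, 14.6, 12.9, 15.3 and 13.1 in ChMKO (log2 fold change -0.49, SE 0.0799, unadjusted p = 6.54e-05, adjusted p = 0.118). Thra, a thyroid hormone receptor, was at 24.6 to 32.8 FPKM in F/F and 18.9 to 22.9 in ChMKO (log2 fold change -0.43, SE 0.0919, adjusted p = 0.261). Slc27a1, a fatty acid transport protein of muscle, was at 55.2 to 81.0 FPKM and 43.5 to 54.1 FPKM (log2 fold change -0.42, SE 0.109, adjusted p = 0.353). Agpat2, an enzyme of triglyceride synthesis, was at 7.98 to 12.4 FPKM and 5.48 to 7.86 FPKM (log2 fold change -0.46, adjusted p = 0.375). Also at this end were the diacylglycerol kinase Dgkz (-0.49) and the actin bundler Fscn1 (-0.50), with the loci Mir6999 (-0.65), Mir3091 (-0.56), Mir1966 (-0.49), LOC105246804 (-0.43) and the ribosomal protein pseudogene Rpl38-ps2 (-0.45), whose reads can be shared with near-identical copies. F/F mouse 71 was the highest F/F library by a wide gap in Fscn1, Dgkz, Mir6999 and Rpl38-ps2, and without it Fscn1 stood at -0.33. Mir6999 lies inside Dgkz on the same strand, so these are not separate loci.

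Of the textbook targets of carbohydrate-responsive transcription 18 of 26 listed were tested. Among them 1 had a higher and 1 a lower mean at an unadjusted p under 0.05, beside 3.30% and 6.44% over all genes, with a median log2 fold change of -0.01. There were 0 higher and 3 lower when F/F mouse 57 was left out, and 0 higher and 2 lower (median -0.07) when F/F mouse 71 was. Txnip, a classical target of MondoA and ChREBP that restrains glucose uptake, averaged a log2 fold change of 0.13 (unadjusted p = 0.332). Arrdc3, an arrestin related to Txnip, was at 6.66 ± 1.51 FPKM in F/F and 9.45 ± 2.68 in ChMKO (log2 fold change 0.43, adjusted p = 0.494). Khk, the enzyme that phosphorylates fructose, was at 7.93, 8.46, 7.92, 8.07 and 9.30 FPKM in F/F and 8.16, 7.57, 7.34, 6.32 and 7.05 in ChMKO (log2 fold change -0.17, SE 0.0750, adjusted p = 0.494). The promoter of Khk is printed as an example of a member with the E-box, found in 6 of the 15 members with a promoter sequence and in 8.09% of the 27025 genes with one. It lies at chr5:30921309-30921608 (GRCm38.p6, plus strand, RefSeq), with the match at -71 in capitals:
Khk: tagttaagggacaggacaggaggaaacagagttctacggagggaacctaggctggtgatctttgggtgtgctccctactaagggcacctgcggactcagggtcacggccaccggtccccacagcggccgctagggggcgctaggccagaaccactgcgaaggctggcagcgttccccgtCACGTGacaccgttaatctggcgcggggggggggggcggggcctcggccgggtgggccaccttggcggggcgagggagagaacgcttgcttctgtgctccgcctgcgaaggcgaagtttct

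In the Mondo and Max network, Mlxipl was the only 1 of 13 members with an unadjusted p under 0.05 in all 10 libraries. There were 2 such members when F/F mouse 57 or 71 or ChMKO mouse 61 was left out, and 3 when ChMKO mouse 59 was. Lipogenesis and triglyceride synthesis had 1 higher and 2 lower members of 28 (median log2 fold change -0.03). Lpin1, a phosphatidate phosphatase that also coactivates PPARalpha, was at 32.5 to 42.5 FPKM in F/F and 44.5 to 50.7 in ChMKO without overlap (log2 fold change 0.39, SE 0.0799, adjusted p = 0.258). Dgat1, the last step of triglyceride synthesis, was at 5.56 ± 0.570 and 4.77 ± 0.149 FPKM (log2 fold change -0.18, adjusted p = 0.461), and Agpat2 is given above. Of other members, Acly was at -0.11, Fasn at 0.17 and Scd1 at -0.11 on the log2 scale. Without F/F mouse 71, 6 lower and 1 higher members had an unadjusted p under 0.05 (median -0.11). Hexose transport and fructose enzymes had 2 lower members of 11 (Khk and the glucose transporter Slc2a10, log2 fold change -0.18). There were 0 lower members when any 1 of F/F mice 58, 70 and 71 or ChMKO mice 61, 72 and 74 was left out. Without ChMKO mouse 61, 1 member was higher, and rescaling gave 1 higher and 1 lower. Slc2a4, the insulin-responsive glucose transporter GLUT4, averaged 0.35 (unadjusted p = 0.168). Glycolysis and lactate had none of 26 members at that limit. There were 2 higher and 1 lower when F/F mouse 71 was left out, 2 higher when ChMKO mouse 59 was, 2 lower when ChMKO mouse 61 was, and 2 higher after rescaling. Aldoa, aldolase of muscle, was at 1951 ± 292.2 FPKM in F/F and 1783 ± 104 in ChMKO, and the mutase Pgam2 at 1135 ± 124 and 1057 ± 61.8 FPKM.

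Of 22 genes of glycogen metabolism 18 had a log2 fold change above 0 (median 0.13) and 3 had an unadjusted p under 0.05, all higher in ChMKO, beside 3.30% of all genes higher at that limit and 5657 of 13348 above 0. Ppp1r3c, a subunit that targets protein phosphatase 1 to glycogen, was at 187, 234, 158, 114 and 105 FPKM in F/F and 177, 207, 241, 248 and 269 in ChMKO, with wide overlap (log2 fold change 0.57, SE 0.209, adjusted p = 0.436). Ugp2, which makes the UDP-glucose used by glycogen synthase, was at 185 ± 22.9 and 232 ± 36.9 FPKM (log2 fold change 0.32, adjusted p = 0.455), and the phosphorylase kinase subunit Phka1 at 13.3 ± 2.29 and 15.8 ± 1.65 FPKM (log2 fold change 0.25). Without F/F mouse 71 the median was 0.01 and 1 member was left at that limit, as when ChMKO mouse 72 or 74 was left out, while 6 were higher (median 0.19) when F/F mouse 57 was. In the fit without F/F mouse 57, 623 of all 13354 genes were higher at that limit.

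Pyruvate entry and the TCA cycle had 30 of 36 members above 0 (median 0.09) and 3 at an unadjusted p under 0.05, all higher in ChMKO. Over all genes, 5657 of 13348 were above 0 and 3.30% were higher at that limit. Pdha1, the catalytic subunit of pyruvate dehydrogenase, was at 346, 354, 340.6, 318 and 277 FPKM in F/F and 381, 380, 405, 401.4 and 373 in ChMKO, without overlap (log2 fold change 0.25, SE 0.0768, adjusted p = 0.400). Dlat, the acetyltransferase of that complex, was at 33.2 to 63.2 FPKM and 64.3 to 69.96 FPKM (log2 fold change 0.34, adjusted p = 0.505). Got1, an aspartate aminotransferase, was at 297 ± 51.6 and 353 ± 22.3 FPKM (log2 fold change 0.27). For Pdha1, Dlat and Got1 the lowest F/F library was mouse 71, and without it Dlat stood at 0.18, Got1 at 0.15 and the median of the list at 0.02, with 3 higher members and 1 lower at that limit. Leaving out F/F mouse 70 or any 1 of ChMKO mice 59, 60 and 61 left 1 member, and leaving out F/F mouse 58 gave 5. The respiratory chain and ATP synthase had none of 79 members at an unadjusted p under 0.05 and a median of -0.04 (0.02 without mouse 71). Atp5b, the beta subunit of ATP synthase, was at 1698 ± 152 FPKM in F/F and 1766 ± 55.4 in ChMKO, and Cox6a2, the muscle form of a cytochrome oxidase subunit, at 1334 ± 201 and 1194 ± 76.7 FPKM.

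Fatty acid uptake and oxidation held members in both directions, 4 higher and 4 lower of 47 (median -0.03), beside 3.30% and 6.44% of all genes. Besides Ppara and Slc27a1, Lpl, the lipase that frees fatty acids from circulating triglyceride, was at 437 to 569 FPKM in F/F and 615 to 678 in ChMKO without overlap (log2 fold change 0.35, SE 0.0824, adjusted p = 0.282). The lipid droplet protein Plin3 was at 28.1 ± 2.56 and 36.2 ± 3.94 FPKM (log2 fold change 0.36, adjusted p = 0.345). Without F/F mouse 71 the members at this limit were 4 higher and 8 lower (median -0.09), beside 464 higher and 1007 lower of all 13331 genes tested in that fit. Lipid transmembrane transport had 2 higher and 3 lower members of 41 (median -0.06), with 5 lower when F/F mouse 57 or 58 was left out. Slco3a1, an organic anion transporter, was at 11.5 to 18.1 FPKM in F/F and 18.3 to 20.0 in ChMKO (log2 fold change 0.31, adjusted p = 0.415). The scramblase Plscr3 was at 4.98 ± 0.634 and 4.06 ± 0.303 FPKM (log2 fold change -0.24) and the sphingosine-1-phosphate transporter Mfsd2b at 1.20 ± 0.302 and 0.826 ± 0.172 FPKM (log2 fold change -0.27).

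**Figure D4:**
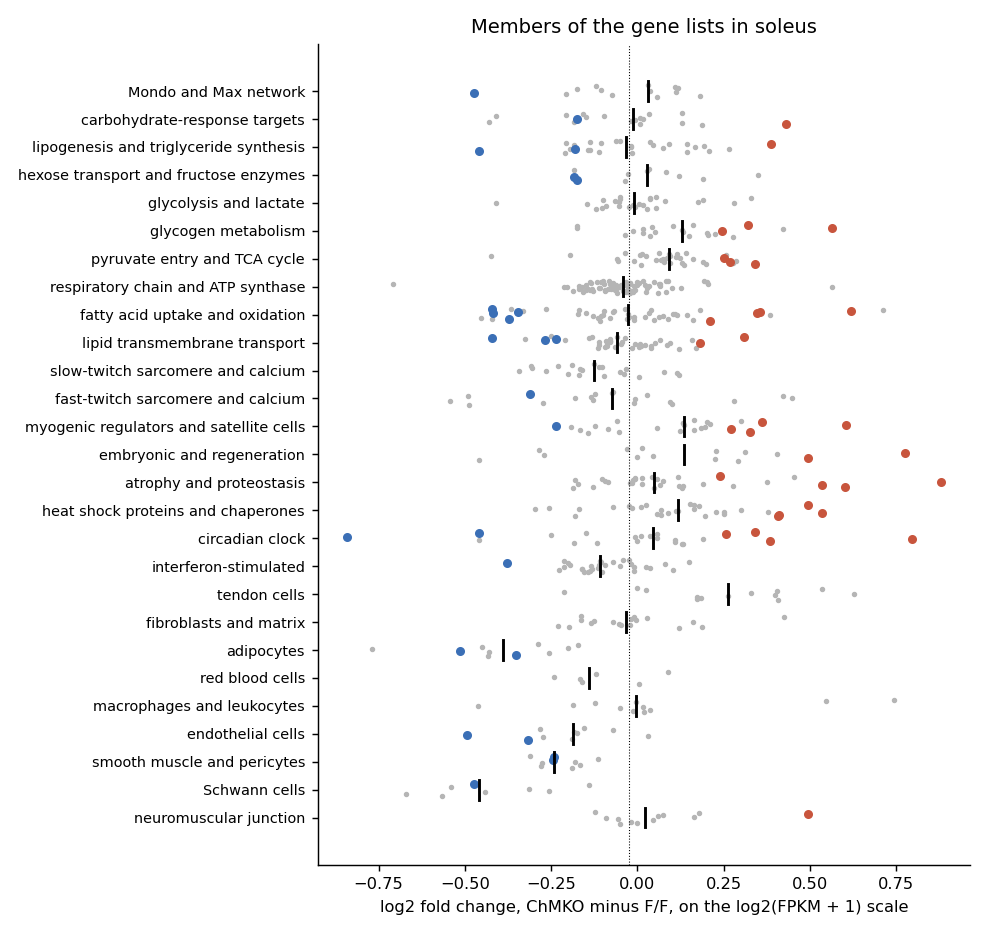
Each point is 1 tested member of a gene list (rows), with its log2 fold change of ChMKO over F/F in soleus on the x axis. Red and blue points have an unadjusted p under 0.05, black bars are list medians and the dotted line is the median of all genes, -0.02. The adipocyte and Schwann cell medians lie at -0.39 and -0.46 and the tendon median at 0.26, the last at -0.09 without F/F mouse 71.

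Fiber type genes overlapped between genotypes. As a share of the summed FPKM of the 4 adult myosin heavy chains, Myh7 of type I fibers took 34.4% ± 6.87 in F/F and 32.1% ± 2.38 in ChMKO, Myh2 of type IIa fibers 34.3% ± 7.87 and 39.9% ± 0.723, Myh1 of type IIx fibers 21.9% ± 3.42 and 22.8% ± 2.89, and Myh4 of type IIb fibers 9.46% ± 7.33 and 5.19% ± 4.41 (SD, n = 5 each). Myh4 was the most variable, at 1229, 19.4, 865, 280 and 391 FPKM in F/F and 249, 496, 699, 61.02 and 66.9 in ChMKO. Of 21 slow-twitch genes 17 were below 0 and none had an unadjusted p under 0.05 (median -0.13), beside 7691 of all 13348 genes below 0. Leaving out F/F mouse 57 gave 6 lower members at that limit (median -0.22), leaving out F/F mouse 69 gave 2, and leaving out F/F mouse 70 gave none with a median of -0.04. In the fit without F/F mouse 57, 1393 of all 13354 genes were lower at that limit. The markers stood with Myh7 at -0.05, Myh7b at -0.34, Tnnc1 at -0.23, Tnni1 at -0.31, Tnnt1 at -0.19, Myl3 at -0.16 and Myl2 at -0.27. F/F mouse 71 was the highest library for Myh7b (31.0 FPKM), Tnnc1, Tnni1, Tnnt1, Myl3 and Myl2. Without it Myh7b stood at -0.17, Tnnc1 at -0.10, Tnni1 at -0.16, Tnnt1 at -0.05, Myl3 at -0.0975 and Myl2 at -0.13. Of 19 fast-twitch genes 1 had (median -0.07), against 4 lower members with F/F mouse 58 left out and 2 higher and 1 lower with F/F mouse 57 left out. It was Tnni2, fast troponin I, at 2019 to 2476 FPKM in F/F and 1514 to 2132 in ChMKO (log2 fold change -0.31, SE 0.112, adjusted p = 0.433). The other fast-twitch markers were Myh2 at 0.28, Myh1 at 0.10, Myh4 at -0.54 (SE 1.07), Tnnc2 at -0.12 and Tnnt3 at -0.07. With F/F mouse 71 left out Myh2 stood at 0.05, Myh1 at -0.03 and Tnnc2 at -0.065. With 1 library left out at a time, Myh4 ranged from -1.51 to -0.03.

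Myogenic regulators and satellite cell genes had 4 higher members and 1 lower of 24, beside 3.30% and 6.44% of all genes (median 0.14, or 0.02 without F/F mouse 71). Of the 24, 16 were above 0 and 8 below. The 4 named here had the smallest unadjusted p, and all were higher, so they do not stand for the list. With F/F mouse 57 left out there were 7 higher and 1 lower (median 0.20), beside 623 higher and 1393 lower of all 13354 genes. Sdc4 was listed as a marker of satellite cells, but bulk RNA does not show which cells made it. Its level was 38.3, 46.3, 51.6, 32.1 and 33.2 FPKM in F/F and 54.5, 55.5, 58.2, 74.63 and 63.1 in ChMKO, without overlap (log2 fold change 0.60, SE 0.138, adjusted p = 0.282). Mef2c, a transcription factor of muscle differentiation, was at 91.9 ± 8.51 and 111 ± 4.05 FPKM (log2 fold change 0.27, adjusted p = 0.362), Eya1, a transcriptional coactivator of the muscle lineage, at 2.26 ± 0.384 and 3.10 ± 0.611 FPKM, and Tead1, a partner of YAP, at 30.2 ± 7.02 and 38.1 ± 2.22 FPKM (log2 fold change 0.36, or 0.21 without F/F mouse 71). The embryonic and regeneration list had 2 higher members of 14 (median 0.14), or 4 without F/F mouse 71. There were 1 higher and 1 lower without F/F mouse 57 (median -0.0095), and 1 higher without F/F mouse 58 or ChMKO mouse 60 or 74. With all libraries the 2 higher members were the metallothionein Mt2 (26.2 ± 9.99 and 43.5 ± 9.18 FPKM, log2 fold change 0.78) and the cell cycle inhibitor Cdkn1a (28.3 ± 10.1 and 39.3 ± 7.97 FPKM, log2 fold change 0.49), neither of which marks embryonic muscle. At the neuromuscular junction, Musk, the receptor kinase that organizes the synapse, was at 3.40, 2.93, 2.61, 3.29 and 3.62 FPKM in F/F and 4.57, 4.87, 4.29, 4.93 and 5.72 in ChMKO, without overlap (log2 fold change 0.50, SE 0.0887, unadjusted p = 0.000152, adjusted p = 0.169). It was the only 1 of 12 junction genes at that limit (median 0.02).

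Among 31 genes of atrophy and proteostasis 4 had a higher mean in ChMKO at an unadjusted p under 0.05 and none a lower (median 0.05, or -0.0050 with 1 lower member without F/F mouse 71), beside 3.30% and 6.44% of all genes. Foxo1, a factor held in check by insulin signaling, was at 3.88, 4.31, 6.74, 6.17 and 5.13 FPKM in F/F and 7.44, 5.50, 7.04, 9.38 and 11.4 in ChMKO (log2 fold change 0.54, SE 0.179, adjusted p = 0.416). Irs2, an insulin receptor substrate and a Foxo target, was at 19.2, 37.5, 50.3, 35.5 and 11.5 FPKM and 56.5, 45.5, 42.5, 63.0 and 50.5 FPKM (log2 fold change 0.88, SE 0.326, adjusted p = 0.436, or 0.58 on the log2 scale without F/F mouse 71). Ddit4, an inhibitor of mTORC1, was at 26.5 ± 9.82 and 39.6 ± 10.7 FPKM (log2 fold change 0.60), and the autophagy kinase Ulk2 at 12.3 ± 1.58 and 14.7 ± 0.540 FPKM (log2 fold change 0.24). All 4 overlapped between genotypes.

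Heat shock proteins and chaperones had 22 of 29 members above 0 (median 0.12) and 4 at an unadjusted p under 0.05, all higher in ChMKO, beside 3.30% of all genes higher at that limit and 5657 of 13348 above 0. With F/F mouse 57 left out there were 3 higher and 3 lower members, and with ChMKO mouse 61 left out 6 higher. Chordc1, a cochaperone of HSP90, was at 12.0, 12.1, 14.0, 13.1 and 13.3 FPKM in F/F and 15.0, 17.6, 15.5, 20.1 and 19.3 in ChMKO (log2 fold change 0.41, SE 0.0894, adjusted p = 0.268). Hsp90aa1, the inducible HSP90, was at 29.5, 42.1, 33.7, 34.8 and 38.6 FPKM and 44.5, 42.4, 44.0, 73.2 and 61.9 FPKM (log2 fold change 0.54, SE 0.157, adjusted p = 0.388). Chordc1 and Hsp90aa1 were without overlap, and ChMKO mice 72 and 74 had the highest values of both. Hsph1, an HSP110 nucleotide exchange factor, was at 19.6 ± 3.99 and 27.9 ± 4.60 FPKM (log2 fold change 0.49, adjusted p = 0.384), and Dnaja1, an HSP40, at 26.4 ± 6.96 and 34.9 ± 6.29 FPKM (log2 fold change 0.41, adjusted p = 0.477). The small heat shock proteins of the list were Hspb1 at -0.30, Hspb2 at -0.17, Hspb3 at -0.26, Hspb6 at -0.01, Hspb7 at 0.01, Hspb8 at -0.07 and Cryab at -0.18, none at an unadjusted p under 0.05. HSF1 binds repeats of GAA and its complement, and the core GAANNTTC, which reads the same on both strands, stood in 13 of the 23 members with a promoter sequence and in 9.04% of all genes with one. The 13 include Hspb1, Hspb3, Hspb6 and Hspb8, whose log2 fold changes were below 0. Windows of 2 members with the higher means are printed with that core in capitals, Chordc1 at chr9:18292017-18292316 (plus strand) and Hsph1 at chr5:149636266-149636565 (minus strand, both RefSeq on GRCm38.p6):
Chordc1: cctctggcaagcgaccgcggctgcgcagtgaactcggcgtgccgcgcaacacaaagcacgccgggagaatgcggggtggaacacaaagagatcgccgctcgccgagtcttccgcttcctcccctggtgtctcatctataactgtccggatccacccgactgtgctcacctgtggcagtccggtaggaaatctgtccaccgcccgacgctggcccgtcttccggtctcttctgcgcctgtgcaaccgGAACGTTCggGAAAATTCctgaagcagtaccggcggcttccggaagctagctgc
Hsph1: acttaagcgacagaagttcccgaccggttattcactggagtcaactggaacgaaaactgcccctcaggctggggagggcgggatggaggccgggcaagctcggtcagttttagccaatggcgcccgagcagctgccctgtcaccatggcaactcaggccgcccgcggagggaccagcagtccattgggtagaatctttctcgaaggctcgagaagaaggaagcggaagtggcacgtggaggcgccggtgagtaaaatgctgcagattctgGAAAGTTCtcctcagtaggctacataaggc

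Of 22 circadian clock genes 4 had a higher and 2 a lower mean in ChMKO at an unadjusted p under 0.05 (median 0.05), beside 3.30% and 6.44% of all genes. Nr1d1, the repressor REV-ERBalpha, was at 28.8, 15.9, 37.2, 58.5 and 30.6 FPKM in F/F and 15.8, 20.6, 13.2, 21.5 and 15.9 in ChMKO (log2 fold change -0.84, SE 0.274, adjusted p = 0.416). Nfil3, a repressor that acts against Dbp and its relatives, was at 15.6, 24.7, 21.4, 9.45 and 12.7 FPKM and 24.2, 24.9, 23.8, 34.4 and 36.8 FPKM (log2 fold change 0.80, SE 0.233, adjusted p = 0.388). Rora, an activator that competes with REV-ERBalpha, was at 1.41 ± 0.199 and 1.88 ± 0.108 FPKM (log2 fold change 0.26), and the rhythmic deubiquitinase Usp2 at 37.3 ± 6.85 and 47.0 ± 2.72 FPKM (log2 fold change 0.34). Nr1d1 overlaps Thra, given above, on the opposite strand, and reads of both cannot be told apart without strand. F/F mouse 70 had the highest Nr1d1 and the lowest Nfil3 of the 10 libraries. The core genes Arntl at 0.13, Per1 at 0.01, Per2 at 0.04 and Cry2 at 0.00 did not reach that limit. The hour at which each mouse was killed is not given in the sources used here. Interferon-stimulated genes had 26 of 31 members below 0, beside 7691 of all 13348 genes (median -0.11, or -0.01 without F/F mouse 71), with the immunoproteasome subunit Psmb9 at 2.09 ± 0.696 and 1.34 ± 0.221 FPKM the only 1 at that limit.

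No marker of another cell type passed the adjusted p with equal library weights. The 11 adipocyte markers in the table summed to 1749 to 2480 FPKM in F/F (median 2000) and 1484 to 1770 FPKM in ChMKO (median 1567), and only F/F mouse 71 fell inside the ChMKO range. All 10 tested members had a log2 fold change below 0 (median -0.39), 2 of them at an unadjusted p under 0.05. Over all genes, 7691 of 13348 were below 0 and 6.44% were lower at that limit. Car3, carbonic anhydrase 3, which slow muscle fibers also make, was at 1550 ± 292.9 FPKM in F/F and 1203 ± 142 in ChMKO (log2 fold change -0.35, adjusted p = 0.462) and made up most of the sum. Fabp4, which capillary endothelium also makes, was at 420 ± 105 and 290 ± 48.3 FPKM (log2 fold change -0.51, adjusted p = 0.416). The more specific Adipoq and Plin1 averaged -0.43 and -0.45, with unadjusted p of 0.433 and 0.435. Without F/F mouse 71 the median was -0.59 and 6 members were lower at that limit, without F/F mouse 69 it was -0.19 with 1 lower, without F/F mouse 70 it was -0.25 with 1 lower, and without ChMKO mouse 60 it was -0.19 with 2 lower. In the fit without F/F mouse 71, 1007 of all 13331 genes were lower at that limit.

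Vessel and nerve markers mostly had log2 fold changes below 0 as well, as did 7691 of all 13348 genes. Endothelial markers summed to 169 to 319 FPKM in F/F and 148 to 188 in ChMKO, with 9 of 10 members below 0 (median -0.19, or -0.04 without F/F mouse 71). Cdh5, the cadherin of endothelial junctions, was at 35.9, 35.4, 40.8, 36.5 and 58.5 FPKM in F/F and 36.3, 31.8, 25.9, 35.6 and 33.5 in ChMKO (log2 fold change -0.32, adjusted p = 0.505, or -0.19 on the log2 scale without F/F mouse 71), and Kdr is given above. Smooth muscle and pericyte markers summed to 199 to 308 and 174 to 238 FPKM, with 9 of 9 below 0 (median -0.24). Smtn, smoothelin of contractile smooth muscle, was at 24.3 to 29.8 FPKM and 20.4 to 23.4 FPKM without overlap (log2 fold change -0.24, SE 0.0703, adjusted p = 0.384), and Pdgfrb of pericytes at 8.22 ± 0.524 and 6.82 ± 0.968 FPKM. Schwann cell markers summed to 36.4 to 132 and 35.7 to 57.7 FPKM, with 8 of 8 below 0 (median -0.46) and 1 at an unadjusted p under 0.05, or 4 when F/F mouse 57 was left out (median -0.52) and 6 when F/F mouse 70 was (median -0.57). Sox10, their lineage factor, was at 0.834, 0.963, 1.85, 0.642 and 2.02 FPKM in F/F and 0.410 to 0.725 in ChMKO (log2 fold change -0.47, adjusted p = 0.418). F/F mice 69 and 71 carried the high Schwann sums, at 132 and 111 FPKM. The part of cell composition in the differences of Kdr, Fabp4, Car3 and the other lower genes was not tested.

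**Figure D5:**
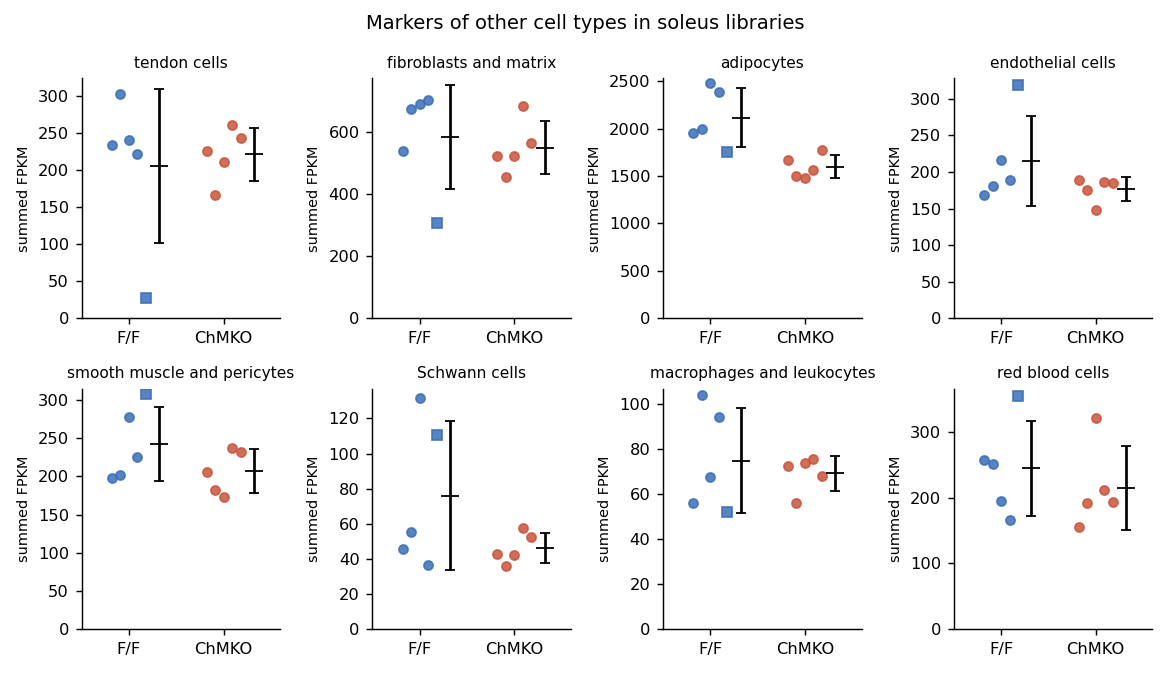
Summed FPKM of the markers of 8 cell types (y axes, from 0) in each F/F (blue) and ChMKO (red) soleus library, with the mean ± SD in black and F/F mouse 71 as a square. Adipocyte markers reach at most 1770 FPKM in ChMKO, and F/F mouse 71 has the lowest tendon sum, 27.7 FPKM, and the highest endothelial sum, 319 FPKM.

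The medians of tendon, matrix and blood markers depended on F/F mouse 71. The 13 tested tendon genes had a median of 0.26 with all libraries and none at an unadjusted p under 0.05, against -0.09 and 2 lower members without that mouse. Fmod, fibromodulin, was at 104, 125, 103, 95.1 and 4.13 FPKM in F/F and 61.1 to 106 in ChMKO, and Thbs4, thrombospondin 4, at 44.2, 66.8, 52.0, 49.5 and 10.6 FPKM and 41.5 to 64.99 FPKM. Fibroblast and matrix markers summed to 308 to 705 and 455 to 684 FPKM (median log2 fold change -0.03), with Sparc at -0.16 and Dcn at 0.16. When F/F mouse 71 was left out that median was -0.24, and 4 of 18 members were lower at an unadjusted p under 0.05. Macrophage and leukocyte markers summed to 52.1 to 104 and 56.1 to 75.4 FPKM (median -0.0035, or -0.12 with 1 member higher at that limit without F/F mouse 71), with Lyz2 at -0.12 and C1qa at -0.01. Red blood cell markers summed to 166 to 356 and 155 to 323 FPKM (median -0.14, or 0.0080 without F/F mouse 71), with Hba-a1 at -0.16 and Hbb-bs at -0.24, genes that share reads with near-identical copies. When F/F mouse 71 was left out, Hba-a1 stood at -0.0060 and Hbb-bs at -0.096. The 9 cartilage and bone genes in the table were all below 0.5 FPKM on average.

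GC libraries labeled with the same mouse numbers were measured alongside, and a muscle by genotype interaction asked whether the genotype difference in soleus differed from that in GC. It passed the adjusted p for 1 of 13176 genes (0.00759%), and 699 had an unadjusted p under 0.05. That gene was Gm38954, at 3.57 ± 1.01 FPKM in soleus and 10.1 ± 2.00 FPKM in GC of ChMKO mice (interaction log2 difference -1.29, SE 0.173, adjusted p = 0.00548, or 0.00383 with the mouse as a replicate block). Since F/F libraries were at 0 in both muscles, this difference rests on the pseudocount and on the levels in ChMKO, and it is no comparison of folds. The call was lost when both muscles of ChMKO mouse 59 were left out. For Gm38824, at 9.28 ± 0.815 FPKM in soleus and 14.1 ± 2.83 FPKM in GC, the interaction had an adjusted p of 0.892. Mlxipl had a log2 fold change of -0.47 in soleus and -0.63 in GC, and the difference between the muscles, 0.15 (SE 0.195), had an adjusted p of 0.930. Side by side, Ppara was at 0.62 in soleus and 0.13 in GC, Musk at 0.50 and -0.01, Lpl at 0.35 and -0.07, Dysf at 0.46 and 0.50, and Nfil3 at 0.80 and 0.84 on the log2 scale, and none of these 5 passed the interaction test.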

How the data were processed

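RNA of soleus was extracted with TRIzol, and libraries of enriched mRNA were made and sequenced by a company. The submitters' processing notes name fastp 0.18.0, Bowtie2 2.2.8, HISAT2 2.1.0, StringTie 1.3.1, RSEM and the build GRCm39, while the positions in the table follow GRCm38. The FPKM values were deposited by the authors. Here the entry with the highest mean was kept for each repeated symbol. The miRNA loci, taken as single exons, gave the exact fragment total of each library, and gene lengths that turn all FPKM values of a gene into whole fragments (within 0.002) were found for 13345 of 13348 genes tested.

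Genotypes were compared in R 4.3.3 with limma 3.58.1 on log2(FPKM + 1) with a trend, two-sided, with Benjamini-Hochberg adjustment over all genes tested. Fold changes on this scale understate those of genes near 1 FPKM. The interaction used all 20 chow libraries, with the mouse number as a random effect (statmod 1.5.0) in an alternative. Strand of counting is not given in the sources used here. Symbols written as dates in the table were left as they are. The procedure was tested on simulated data.

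The comparison, the gene lists and the rule for names were chosen with earlier results of these data known. Named were Mlxipl, Mlxip, Mlx and 11 fiber markers, genes past the adjusted p or the criterion of the study, the 12 highest and 12 lowest non-overlapping genes of at least 5 FPKM at an unadjusted p under 0.05, and in each list up to 4 members with the smallest unadjusted p under 0.05 or else the 2 most abundant. Ckm, Klc3, Mark4, Gm31520 and list members given only by a log2 fold change were named after their values were seen, and 1 gene that the rule names is not reported here. Each mouse gave 1 soleus library, and no pair of libraries was identical.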

Additional observations from a re-analysis of the deposited data

Results flagged for a closer look

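In 23 of 239 groups of 5 libraries, 1 library stood apart from the other 4 by Dixon's criterion, where chance gives about 1 in 20 for normal values. That share does not hold for loci with few fragments, where 1 library with a fragment among libraries at 0 stands apart, as for Mir5133, Mir7036b, Mir7079, Snora20 and, in ChMKO, Igkj2. Many of the genes were also named for their difference between genotypes. F/F mouse 71 was that library in 11 of the 23, of which Mir6999 and Dgkz share a locus. It was high for Myh7b (31.0 FPKM), Mir703 (8.82 FPKM), Mir6999 (179.9 FPKM), Fscn1 (11.45 FPKM), Dgkz (32.9 FPKM), Rpl38-ps2 (28.3 FPKM) and Cdh5 (58.5 FPKM), and low for Dnajb4 (31.4 FPKM), Atl2 (5.60 FPKM), Ugp2 (145 FPKM) and Fmod (4.13 FPKM). Other F/F libraries apart were mouse 70 for Igkj2 (14.9 FPKM), mouse 58 for Mir5133 (0.771 FPKM) and mouse 69 for Mir3091 (11.2 FPKM) and Lpin1 (42.5 FPKM). Among ChMKO libraries, mouse 61 was high for Tnnc2 (8562 FPKM) and Tnnt3 (4087 FPKM) and low for the summed neuromuscular junction markers (94.5 FPKM). ChMKO mouse 60 was apart for Igkj2 (1.36 FPKM), Mir7036b (0.840 FPKM) and Lyz2 (18.2 FPKM), and ChMKO mouse 72 for Mir7079 (1.54 FPKM) and Snora20 (0.872 FPKM).

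Gm38954 passed the test of the muscle by genotype interaction, with a fitted log2 difference of -1.29. With all F/F libraries at 0, it reflects the levels in ChMKO, 3.57 FPKM in soleus and 10.1 FPKM in gastrocnemius, on the log2(FPKM + 1) scale.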

How the results depend on the processing

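Gm38824, Gm36408 and Gm38954 passed the adjusted p under each alternative tried except the filter at a mean of 5 FPKM, which leaves them untested. Under that filter 0 genes passed the adjusted p, with or without the fold limit, 3 met the criterion of the study, 563 had an unadjusted p under 0.05, 123 did not overlap, and 0 passed the interaction test. A pseudocount of 0.1 gave 57 genes past the criterion, and limma voom on the recovered fragments, an alternative chosen after seeing the data, gave 65. Without a filter 2033 genes had an unadjusted p under 0.05. Library weights gave 11 genes past the adjusted p and 2270 at an unadjusted p under 0.05, with a weight of 0.173 for F/F mouse 71. Among these were Ppara (adjusted p = 0.0449), Kdr (0.0449), Musk (0.0369) and Dysf (0.0254), by limma, and Rhou had an adjusted p of 0.0457 without F/F mouse 69. Fitting all 20 chow libraries gave 9 genes past the adjusted p, both without and with the mouse as a replicate block. Dysf was among them (adjusted p = 0.0134 without and 0.0112 with the block, by limma). The block gave the interaction 1 gene, as without it. Same-numbered soleus and gastrocnemius libraries correlated in their deviations at -0.117 to 0.38, and the title of the soleus library of mouse 69 carries another number. Rescaling by median ratios put 43.6% of genes at an unadjusted p under 0.05 on the higher side, against 33.9%.

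Leaving out 1 library at a time gave 21 to 34 genes past the criterion, 3 to 6 past the adjusted p, 977 to 2016 at an unadjusted p under 0.05 and 359 to 849 without overlap, the most without F/F mouse 57. Leaving out 1 mouse gave 0 to 2 interaction genes. Mlxipl kept its direction throughout. Some differences changed sign. Without 1 library, the lowest and highest log2 fold changes were -0.0858 and 0.0079 for Myh7, -0.0332 and 0.23 for Myh1, -0.25 and 0.90 for Fmod, -0.0368 and 0.60 for Thbs4, -0.17 and 0.31 for Dcn, -0.26 and 0.0199 for Lyz2, and -0.11 and 0.13 for C1qa. Library weights put Fmod at -0.0677, Dcn at -0.0915 and Hba-a1 at 0.0212, and rescaling put C1qa at 0.0026. FPKM of loci with few fragments limits what can be read from the miRNA and snoRNA loci, and p-values measure the spread between these mice alone.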
